A study of Homo sapiens with 6 samples.

Results

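Ribosomal DNA unit transcripts are the short RNAs annotated inside the repeated unit that encodes ribosomal RNA. The 3 rows described here, MIR3648-1, RNA5-8SN3 and RNA5-8SN4, were picked by gene symbol from the 65746 genes of the deposited count table. They were picked because they were high after beta-sitosterol and near or at 0 in DMSO, so their difference between the groups is given as a description, without a test. The RNA came from SU-DHL-8, an established human diffuse large B-cell lymphoma line that the labels give as wild type. Cells received 15 µM beta-sitosterol, a plant sterol, for 24 h, and control cells received the solvent DMSO for 24 h. There were 3 libraries per group, 6 in all. Nothing in the labels says that replicates came from separate cultures, so p-values measure only the spread between these samples. Both groups are a single cell line, so differences between lymphomas are not sampled.

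Each ribosomal DNA unit is transcribed by RNA polymerase I into a long 45S precursor. Cleavage and trimming of that precursor release the 18S RNA of the small ribosomal subunit and the 5.8S and 28S RNAs of the large subunit, and the transcribed spacers around them are degraded. RNA5-8SN3 and RNA5-8SN4 are copies of the 5.8S gene. MIR3648-1 is annotated as a microRNA gene and lies in the external spacer ahead of the 18S sequence.

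The RefSeq annotation of the unit RNA45SN2 (build GRCh38.p14, chromosome 21, plus strand) shows this order over 13315 bases. MIR3648-1 lies 2485 to 2664 bases after the annotated start of the 45S transcript and the 18S RNA begins at 3643 bases. The 5.8S RNA occupies 6583 to 6739 bases after the start, and the 28S RNA begins at 7900 bases. In the unit RNA45SN3 the 5.8S copy that RefSeq names RNA5-8SN3 lies at 6571 to 6727 bases. A further microRNA gene, MIR6724-1, lies ahead of the transcript, at -673 to -582 bases relative to its start.

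**Figure D1:**
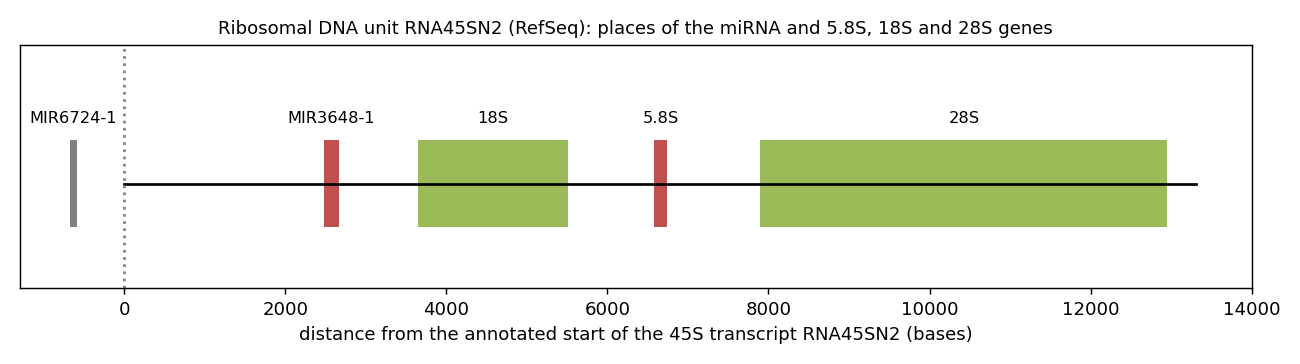
Map of the ribosomal DNA unit RNA45SN2 as annotated by RefSeq, with the distance from the start of the 45S transcript in bases on the horizontal axis. The black line is the 45S transcript, red boxes are the positions of MIR3648-1 and the 5.8S RNA, green boxes are the 18S and 28S RNAs, and MIR6724-1 (grey) lies ahead of the start. MIR3648-1 sits at 2485 to 2664 bases, ahead of the 18S RNA.

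MIR3648-1 (ENSG00000275708) is in GENCODE v29 a single-exon non-coding gene of 180 bases on chromosome 21, with 83.9% G and C and 36 CpG dinucleotides. Among 1879 microRNA genes of that release the median G and C content was 50.9%, and 12 had a content at or above that of MIR3648-1.

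The identifier that the count table gives RNA5-8SN3 (ENSG00000275215) belongs in GENCODE v29 to a 5.8S gene of 153 bases at chr21:8395607-8395759 (plus strand, GRCh38), a single exon with 57.5% G and C. Its sequence is shown because it sets how far the 5.8S counts can be assigned to a row. Capitals mark the bases that lie in no 25-base word shared with a 5.8S pseudogene of GENCODE v29.
RNA5-8SN3: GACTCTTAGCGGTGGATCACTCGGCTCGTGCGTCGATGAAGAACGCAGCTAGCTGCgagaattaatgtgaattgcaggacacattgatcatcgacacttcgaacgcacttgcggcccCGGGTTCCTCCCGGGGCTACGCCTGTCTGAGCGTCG

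Neither gene is unique in sequence. All 156 of the 25-base words of MIR3648-1 also occur in MIR3648-2, also on chromosome 21, whose 180 bases are identical to it. All 4 of the 5.8S genes on chromosome 21 in GENCODE v29 are identical to the RNA5-8SN3 sequence, so all 129 of its 25-base words occur in another gene. The release names 7 loci RNA5-8SN2 and 1 locus RNA5-8SN4, and 5.8S loci beyond the 4 were not compared. The 5.8S pseudogenes are more distant, with 10 to 46 edits between each of the 5 compared and the gene. The row for RNA5-8SN4 carries no identifier in the count table, and its position is not given here. How reads that map to several places were treated is not stated in the labels or the submitters' processing notes. The division of reads among identical copies is therefore uncertain, and each member's count is best read together with those of its copies.

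MIR3648-1, the spacer microRNA gene, had 859, 455 and 476 reads in beta-sitosterol replicates 1, 2 and 3, against 6, 0 and 1 reads in DMSO replicates 1, 2 and 3. Every treated library was far above every DMSO library. Its mean was 21.2 ± 6.87 CPM (read counts scaled by library size with TMM factors) after beta-sitosterol and 0.0683 ± 0.0945 CPM in DMSO (SD, n = 3 each). Summed over libraries there were 1790 reads after beta-sitosterol and 7 reads in DMSO, a ratio of 308 per unit of library size, with an exact 95% counting interval of 149 to 768. With so few DMSO reads the ratio of the group means depends on single libraries. That ratio was 311 with all libraries, 1466 without DMSO replicate 1, which held 6 of the 7 reads, and 206 without DMSO replicate 2.

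RNA5-8SN4, a 5.8S copy, had 195, 89 and 102 reads in beta-sitosterol replicates 1, 2 and 3, against 0, 0 and 0 reads in DMSO. Its mean was 4.57 ± 1.79 CPM after beta-sitosterol (SD, n = 3). As a limit that a count of 0 allows, 3 reads over the whole DMSO group were taken (0.0298 CPM). The pooled treated reads of RNA5-8SN4 lay 155-fold above that limit per unit of library size. This and the like values below leave out the counting error of the treated reads. The treated libraries did not overlap the DMSO libraries. The 5.8S RNA is part of the large ribosomal subunit, so 0 reads do not show that it was absent from DMSO cells. Values for the 5.8S rows describe reads in these libraries, not amounts of 5.8S RNA in cells. How far the libraries captured 5.8S RNA was not tested.

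RNA5-8SN3, the other 5.8S copy, had 136, 40 and 69 reads in beta-sitosterol replicates 1, 2 and 3, against 0, 0 and 0 reads in DMSO. Its mean was 2.88 ± 1.58 CPM after beta-sitosterol (SD, n = 3), and its pooled treated reads lay 98.5-fold above the same limit. The treated libraries again did not overlap the DMSO libraries.

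All 3 members thus had their treated values above all DMSO values, as had 27% of the 11525 genes tested, and 56.1% of those genes had no overlap between the groups in either direction. The members were chosen on this contrast and nothing is read from that comparison. All 3 also passed the filter on low counts through the treated libraries alone. In bulk RNA, a transcript present in more cells and more of it per cell cannot be told apart. Counting intervals and limits here cover counting error only.

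**Figure D2:**
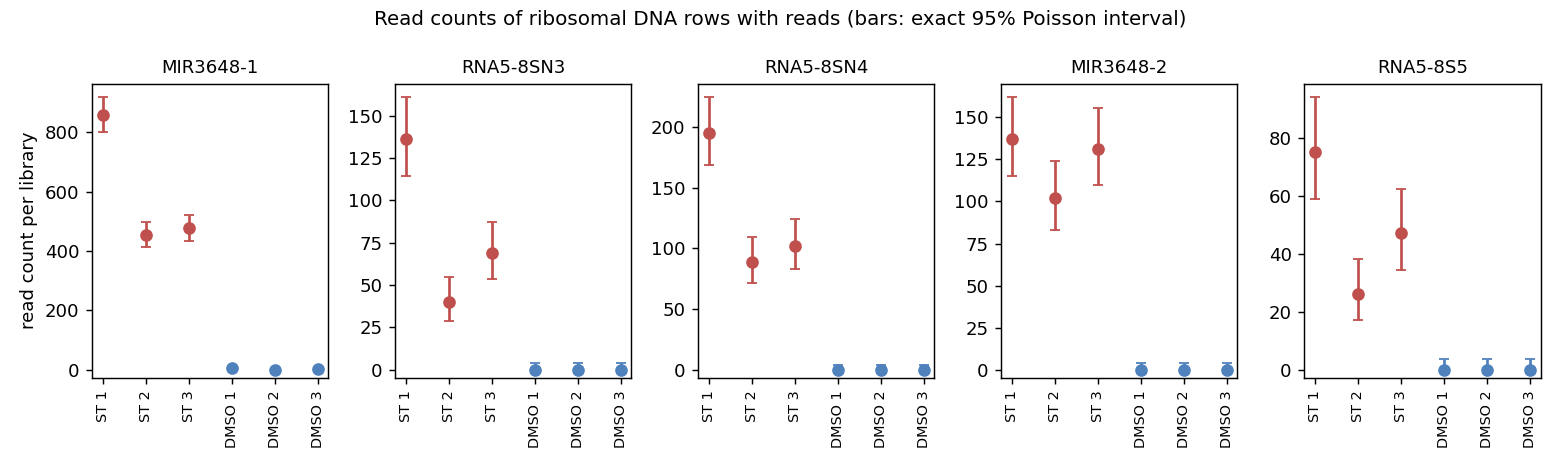
Read counts per library (vertical axes, reads, linear and on separate scales) for the 5 ribosomal DNA rows with at least 26 reads in every treated library, in beta-sitosterol replicates 1 to 3 (ST, red) and DMSO replicates 1 to 3 (blue). Points are counts and bars exact 95% Poisson intervals; all treated points lie above all DMSO points, of which the highest is 6 reads, for MIR3648-1.

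Other rows of the unit showed which copies had reads. MIR3648-2, the identical copy of the spacer gene, had 137, 102 and 131 reads in beta-sitosterol replicates 1, 2 and 3, against 0, 0 and 0 in DMSO. Its pooled treated reads lay 149-fold above the DMSO limit of 3 reads. Of the reads on both MIR3648 rows in the treated libraries, MIR3648-2 held 13.8% (exact 95% interval 11.7 to 16.1), 18.3% (15.2 to 21.8) and 21.6% (18.4 to 25.1). The share in replicate 1 lay below that in replicate 3 by more than counting error. RNA5-8S5, which carries an older symbol of a 5.8S gene and was singled out after its values were seen, had 75, 26 and 47 reads after beta-sitosterol, against 0, 0 and 0 in DMSO. Its pooled treated reads lay 59.5-fold above the same limit.

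The 10 rows named as 5.8S genes held 406, 155 and 218 reads in beta-sitosterol replicates 1, 2 and 3, all on RNA5-8SN3, RNA5-8SN4 and RNA5-8S5, against 0, 0 and 0 reads in DMSO. Within these reads RNA5-8SN3 held 33.5%, 25.8% and 31.7% in the treated replicates and RNA5-8S5 held 18.5%, 16.8% and 21.6%. Of the 16 rows for 18S, 28S and 5.8S pseudogenes, 1 had reads, 3 in beta-sitosterol replicate 1. The 0 reads on the 5.8S rows in DMSO do not show that this RNA was absent from those cells.

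MIR6724, the microRNA gene ahead of the transcript start, had 4 rows with 0, 1 and 2 reads in all in the treated libraries and 0, 0 and 0 in DMSO. A difference between the groups was not detectable for it at this depth. The 5S ribosomal RNA, which RNA polymerase III transcribes from other loci, had 3 rows with reads among 17 gene rows. They held 3, 6 and 2 reads in the treated libraries and 0, 0 and 0 in DMSO. The 510 rows for 5S pseudogenes held 212, 218 and 176 reads after beta-sitosterol and 184, 237 and 180 in DMSO, and these summed ranges overlap. Single rows among them differed, and 2 are named here after their values were seen. RNA5SP443 had 52, 62 and 56 reads after beta-sitosterol, against 0, 0 and 0 in DMSO. It passed the filter on low counts through the treated libraries alone, so no p-value is given for it. RNA5SP283 fell, with 1.31 ± 0.249 CPM after beta-sitosterol and 2.82 ± 0.0278 CPM in DMSO (SD, n = 3 each, edgeR adjusted p = 0.0050).

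The 30 rows named as 45S, 18S and 28S genes were listed at 0 in all 6 libraries. Those rows carry no identifier, and among the 26423 rows without an identifier 67 had any reads (0.254%), against 46.7% of the 39323 rows with one. The listed zeros therefore say nothing on the amount of the long ribosomal RNAs or of the 45S precursor, and the members' reads could not be set beside the rest of their own unit.

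The lengths behind the deposited TPM (abundance scaled for length and library) were recovered from the ratio of counts to TPM. They came to 180 bases for MIR3648-1 and for MIR3648-2, 153 bases for RNA5-8SN4 and for RNA5-8S5, and 306 bases for RNA5-8SN3. The last is 2 times 153 bases. For RMRP the recovered 532 bases equal the sum of the 2 loci that share its name in GENCODE v29, whereas RPPH1 (971 bases, against 333 in that release) and RN7SL1 (599 against 299) have 1 locus each there. Whether the length of RNA5-8SN3 covers more than 1 copy was not tested. The TPM of RNA5-8SN3 is therefore lower, at a given count, than that of RNA5-8SN4.

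Per length, MIR3648-1 was the highest of the rows with reads. Its deposited TPM averaged 455 ± 154 after beta-sitosterol and 2.03 ± 2.81 in DMSO (SD, n = 3 each). After beta-sitosterol the mean TPM was 115 ± 46.8 for RNA5-8SN4, 94.6 ± 10.6 for MIR3648-2, 44.1 ± 20.2 for RNA5-8S5 and 36.4 ± 20.5 for RNA5-8SN3 (SD, n = 3 each), and each of these was listed at 0 in DMSO. The gap between MIR3648-1 and RNA5-8SN4 exceeded the spread of both, since the lowest treated library of MIR3648-1 had 365 TPM and the highest of RNA5-8SN4 had 169 TPM. RNA5-8SN4 and MIR3648-2 did not differ beyond their spread, nor did RNA5-8S5 and RNA5-8SN3. The treated libraries of MIR3648-2, at 82.4 TPM or more, all lay above those of RNA5-8S5, at 65.1 TPM or less.

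In reads per base, MIR3648-1 had 4.77, 2.53 and 2.64 in beta-sitosterol replicates 1, 2 and 3. RNA5-8SN4 had 1.27, 0.582 and 0.667 reads per base in the same libraries. As single rows, MIR3648-1 was thus covered more densely than RNA5-8SN4 in each treated library. Reads on RNA5-8SN3 and RNA5-8S5 would add to the 5.8S side, and those on MIR3648-2 to the spacer side. Reads shared among copies that hold no reads in this table would also add to the 5.8S side, and their number is not known here.

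The members were unevenly spread over the treated libraries. In CPM, MIR3648-1 had 29.2 (exact 95% Poisson interval 27.2 to 31.2), 17.2 (15.7 to 18.9) and 17.3 (15.8 to 18.9) in beta-sitosterol replicates 1, 2 and 3. RNA5-8SN3 had 4.62 (3.87 to 5.46), 1.51 (1.08 to 2.06) and 2.51 (1.95 to 3.18) CPM, and RNA5-8SN4 had 6.62 (5.72 to 7.62), 3.37 (2.7 to 4.14) and 3.71 (3.02 to 4.50) CPM. For each member replicate 1 was the highest, by more than counting error, and replicates 2 and 3 overlapped in their intervals.

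Against the mean of replicates 2 and 3, replicate 1 was 1.69 times as high for MIR3648-1, 2.30 times for RNA5-8SN3, 1.87 times for RNA5-8SN4 and 1.89 times for RNA5-8S5. MIR3648-2 did not share this, with a ratio of 1.08. Over 10362 rows with at least 1 CPM the same ratio had a median of 0.997, and the middle 90% of rows lay between 0.832 and 1.20. RPPH1, the RNA of RNase P, had a ratio of 5.36, RMRP, the RNA of RNase MRP, 2.25, and RN7SL1, an RNA of the signal recognition particle, 1.54. The U3 small nucleolar RNA rows lay closer to 1, with ratios of 1.19 for SNORD3A, 0.798 for SNORD3B-1 and 1.25 for SNORD3B-2. RPPH1, RMRP and RN7SL1 are structured non-coding RNAs made by RNA polymerase III, and their part in the members' spread was not tested. The makeup of the members' reads changed less, since the 5.8S members held 27.8% (exact 95% interval 25.3 to 30.5), 22.1% (18.8 to 25.7) and 26.4% (23.1 to 30.0) of member reads in the treated replicates.

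**Figure D3:**
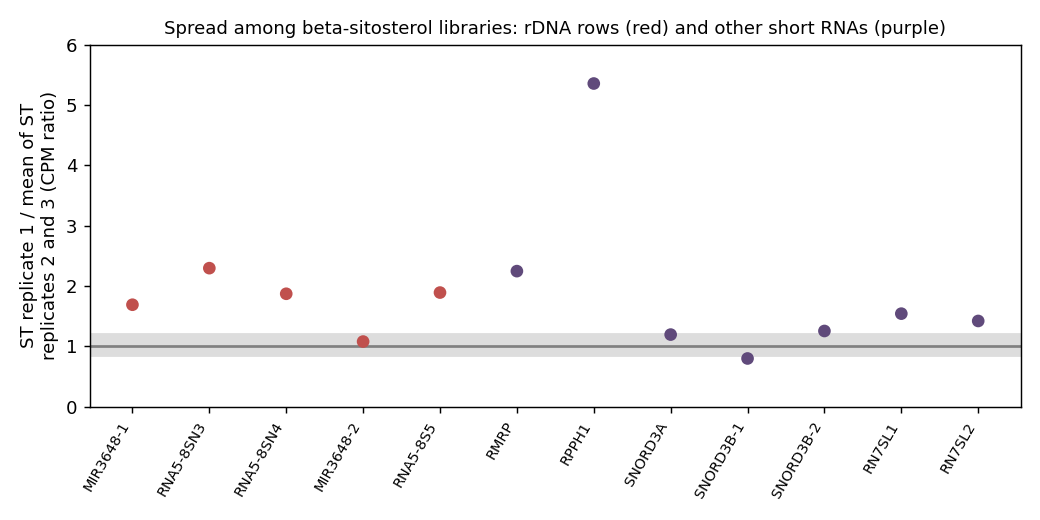
Ratio of CPM in beta-sitosterol replicate 1 to the mean of replicates 2 and 3 (vertical axis, no unit) for ribosomal DNA rows (red) and other short structured RNAs (purple); the grey band covers the middle 90% of rows with at least 1 CPM (0.832 to 1.20) and the line is their median (0.997). The 3 members lie above the band at 1.69 to 2.30, MIR3648-2 lies within it at 1.08, and RPPH1 is highest at 5.36.

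The row most like MIR3648-1 over the 6 libraries was SNORD3A, which encodes U3, a small nucleolar RNA that pairs with the 45S precursor and guides its early cleavages. Likeness was the root mean square difference between centred log2 CPM profiles, and it holds the contrast on which the member was chosen. It was 0.46 for SNORD3A, 0.91 for RNA5-8SN4, 0.93 for MIR3648-2, 0.99 for the kallikrein pseudogene KLKP1 and 1.24 for RNA5-8SN3. For KLKP1 the counts were 325, 327 and 301 after beta-sitosterol, against 0, 3 and 0 in DMSO. For RNA5-8SN4 the closest rows were MIR3648-2 at 0.26, RNA5-8SN3 at 0.41, the AP-1 factor gene JUN at 0.48, SNORD3A at 0.61 and RNA5SP443 at 0.68. For RNA5-8SN3 they were RNA5-8S5 at 0.34, RNA5-8SN4 at 0.41, JUN at 0.43, MIR3648-2 at 0.54 and FOS, another AP-1 gene, at 0.54. Messenger RNAs such as JUN and FOS were thus about as close to the 5.8S rows as other ribosomal DNA rows were. Profiles of rows at 0 in DMSO depend on the prior count, set to 2.

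The genes that make and process the precursor were described from 4 lists. Over all 11525 genes tested with edgeR's quasi-likelihood test, 19% were higher and 21.8% lower after beta-sitosterol at an adjusted p under 0.05, and the median log2 fold change was -0.04. The first list holds small RNAs that act on the precursor, namely U3 and other small nucleolar RNAs and RMRP, and also RPPH1, the related RNA of RNase P, which acts on transfer RNA precursors. Of its 17 members 8 were listed at 0 in all libraries, 1 (SNORD3C) had too few reads to be tested and 8 were tested. Of these, 5 were called higher and 1 lower (75% called, against 40.8% of all tested genes), and the median log2 fold change was 3.24. Among the 5, SNORD3A, SNORD3B-1, SNORD3B-2 and RMRP passed the filter on low counts only through the treated libraries. Nothing is therefore read from this share or this median. SNORD3C had 21, 19 and 9 reads after beta-sitosterol and 1, 1 and 1 in DMSO.

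SNORD3A had 2115, 1616 and 1625 reads in beta-sitosterol replicates 1, 2 and 3, against 28, 8 and 20 reads in DMSO. It averaged 64.0 ± 6.82 CPM after beta-sitosterol and 0.550 ± 0.286 CPM in DMSO (SD, n = 3 each). Its near-identical copies SNORD3B-1 and SNORD3B-2, whose reads cannot be assigned with certainty, were also higher. The recovered length was 1134 bases for the SNORD3A row, 1193 for SNORD3B-1 and 1226 for SNORD3B-2. Whether reads on rows of this length come from the U3 RNA itself was not tested. SNORD3B-1 had 35, 46 and 34 reads after beta-sitosterol, against 4, 2 and 6 in DMSO. SNORD3B-2 had 33, 28 and 20 reads after beta-sitosterol, against 6, 0 and 6 in DMSO. SNORD3A, SNORD3B-1 and SNORD3B-2 passed the filter on low counts only through the treated libraries, so no p-value is given for them. These 3 U3 rows were without overlap between the groups, as was SNORD3C, a further U3 row that was not tested. The same held for 56.1% of all tested genes, in either direction.

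RMRP, the RNA of the enzyme that cuts the precursor between the 18S and 5.8S sequences, had 304, 116 and 132 reads after beta-sitosterol, against 8, 0 and 14 in DMSO. It passed the filter on low counts only through the treated libraries, so no p-value is given for it. RPPH1 had 716, 138 and 106 reads after beta-sitosterol, against 12, 12 and 34 in DMSO (log2 fold change 4.27 ± 0.80, ± SE, edgeR adjusted p = 0.0038). Beta-sitosterol replicate 1 decides its mean of 11.1 CPM, since replicates 2 and 3 had 5.22 and 3.85 CPM. SNORA73B, a small nucleolar RNA known as U17, fell, with 49, 48 and 45 reads after beta-sitosterol and 140, 65 and 128 in DMSO (fell by 0.95 ± 0.29 log2 units, edgeR adjusted p = 0.029). Its call was lost in 7 of 14 alternatives, among them the leaving out of each treated library, while the call of RPPH1 held in all 14.

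Tested rows of short genes went in both directions. Of 129 tested rows of at most 330 bases, a limit set after the values were seen, 20.2% were higher and 15.5% lower after beta-sitosterol by the same test. The 26 higher rows include the 3 members, which were chosen on this contrast, and their copies MIR3648-2 and RNA5-8S5. Nothing is read from the calls of these rows. Other short structured RNAs were also higher after beta-sitosterol and at or near 0 in DMSO, and the following were picked after their values were seen. RNU6-7, a U6 spliceosomal RNA gene, averaged 0.965 CPM after beta-sitosterol and was at 0 in DMSO. RNU6-8, another U6 gene, averaged 1.55 CPM after beta-sitosterol and 0.0391 CPM in DMSO. RNU2-17P, a U2 pseudogene, averaged 1.69 CPM after beta-sitosterol and 0.0402 CPM in DMSO, and RNU5A-1, a U5 gene, 0.922 CPM after beta-sitosterol and 0.0402 CPM in DMSO. These rows passed the filter on low counts through the treated libraries alone, so no p-value is given for them. Not every row of these families was higher. RNU6-761P, RNU6-1223P and RNU2-6P had log2 fold changes of -1.07, -1.18 and -0.20, and none of them was called. Among the short rows that fell, MIR5587 had the lowest log2 fold change, -2.08. Reads on the signal recognition particle RNA were uneven between DMSO libraries. RN7SL1 had 5318, 2763 and 3567 reads after beta-sitosterol and 1126, 136 and 2103 in DMSO, and RN7SL2 had 4448, 2112 and 3651 reads after beta-sitosterol and 2380, 212 and 4690 in DMSO. DMSO replicate 2 was the lowest for both, and the part of this unevenness in the members' values was not tested.

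The second list holds the proteins of the exosome, the complex that trims the 3′ end of the 5.8S RNA, and of RNases MRP and P. Of 25 genes 23 were tested, MTREX was listed at 0 and RPP25 did not pass the filter. After beta-sitosterol 6 rose and 0 fell, 17 did not pass, and the median log2 fold change was 0.22. The share called was 26.1%, below the 40.8% of all tested genes. EXOSC5, an exosome core subunit, had 5827, 5076 and 5435 reads after beta-sitosterol, against 1939, 1097 and 2502 in DMSO, and averaged 196 ± 3.26 CPM after beta-sitosterol and 54.5 ± 19.0 CPM in DMSO (SD, n = 3 each). In log2 units it rose by 1.84 ± 0.24 (± SE, edgeR adjusted p = 7.55e-04). RPP30, a protein of RNases MRP and P, averaged 61.8 ± 3.61 CPM after beta-sitosterol and 27.2 ± 4.30 CPM in DMSO (1.19 ± 0.14, edgeR adjusted p = 5.57e-04). EXOSC1, another exosome subunit, rose by 0.96 ± 0.16 log2 units (edgeR adjusted p = 0.0024). Without DMSO replicate 2 the list had 8 higher and 4 lower genes. With limma on log2(TPM + 1), 2 were higher and 1 lower, and the call of EXOSC1 was lost.

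The third list holds RNA polymerase I and its initiation factors. Of 21 genes 18 were tested, and POLR1F, POLR1G and POLR1H were listed at 0 under their present and older symbols. After beta-sitosterol 3 rose, 4 fell and 11 did not pass, with a median log2 fold change of 0.05. The share called was 38.9%, near the 40.8% of all tested genes. The falls included UBTF, the factor that binds along active ribosomal DNA, with 6889, 6164 and 6547 reads after beta-sitosterol, against 14589, 16011 and 16357 in DMSO. UBTF averaged 235 ± 2.63 CPM after beta-sitosterol and 468 ± 37.2 CPM in DMSO (SD, n = 3 each), a fall by 0.99 ± 0.11 log2 units (± SE, edgeR adjusted p = 3.84e-04).

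POLR1A, the largest catalytic subunit, averaged 147 ± 4.87 CPM after beta-sitosterol and 259 ± 7.10 CPM in DMSO (SD, n = 3 each), a fall by 0.81 ± 0.10 log2 units (± SE, edgeR adjusted p = 6.46e-04). POLR1B, the second catalytic subunit, fell by 0.36 ± 0.11 (edgeR adjusted p = 0.028), and TBP, the general TATA-binding protein, fell by 0.65 ± 0.21 (edgeR adjusted p = 0.036). The rises were POLR2K, a small subunit shared by RNA polymerases I, II and III (1.20 ± 0.21, edgeR adjusted p = 0.0028), RRN3, which links the polymerase to the promoter (0.49 ± 0.14, edgeR adjusted p = 0.025), and TAF1A, a subunit of the promoter selectivity factor (0.48 ± 0.16, edgeR adjusted p = 0.040). Without beta-sitosterol replicate 1, 2 or 3 the list had 1 higher and 2 lower genes each time, and without DMSO replicate 2 or 3 it had 5 higher. The calls of UBTF, POLR1A and POLR2K held in all 14 alternatives, that of TBP in 11, of RRN3 in 9, of TAF1A in 7 and of POLR1B in 6. Leaving out any treated library ended the last 4 calls.

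The fourth list holds 54 pre-rRNA processing factors, all tested. After beta-sitosterol 6 rose, 7 fell and 41 did not pass, and the median log2 fold change was 0.05. The share called was 24.1%, below the 40.8% of all tested genes. FBL, the methyltransferase of box C/D small nucleolar ribonucleoproteins such as U3, averaged 975 ± 21.6 CPM after beta-sitosterol and 582 ± 55.4 CPM in DMSO (SD, n = 3 each; log2 fold change 0.74 ± 0.11, edgeR adjusted p = 0.0015). UTP11, a protein of the U3-containing processome, rose by 0.84 ± 0.14 log2 units (edgeR adjusted p = 0.0025), and DDX56, a nucleolar helicase, by 0.59 ± 0.15 (edgeR adjusted p = 0.013). The calls of FBL and DDX56 were lost with limma on log2 TPM, and that of DDX56 also without beta-sitosterol replicate 3.

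Among the falls, ISG20L2, an exonuclease that trims the precursor of 5.8S RNA, averaged 133 ± 6.06 CPM after beta-sitosterol and 243 ± 37.5 CPM in DMSO (SD, n = 3 each). It fell by 0.87 ± 0.14 log2 units (± SE, edgeR adjusted p = 0.0016). RRP1B, a nucleolar protein, fell by 0.64 ± 0.10 (edgeR adjusted p = 0.0020), and IMP4, a U3-associated protein, by 0.53 ± 0.11 (edgeR adjusted p = 0.0064). Single libraries moved these counts. Without beta-sitosterol replicate 1, 2 or 3 there were 3, 3 or 2 higher genes, and without replicate 1 there were 4 lower. Without DMSO replicate 2 there were 17 higher and 12 lower, and without DMSO replicate 3 there were 10 higher.

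**Figure D4:**
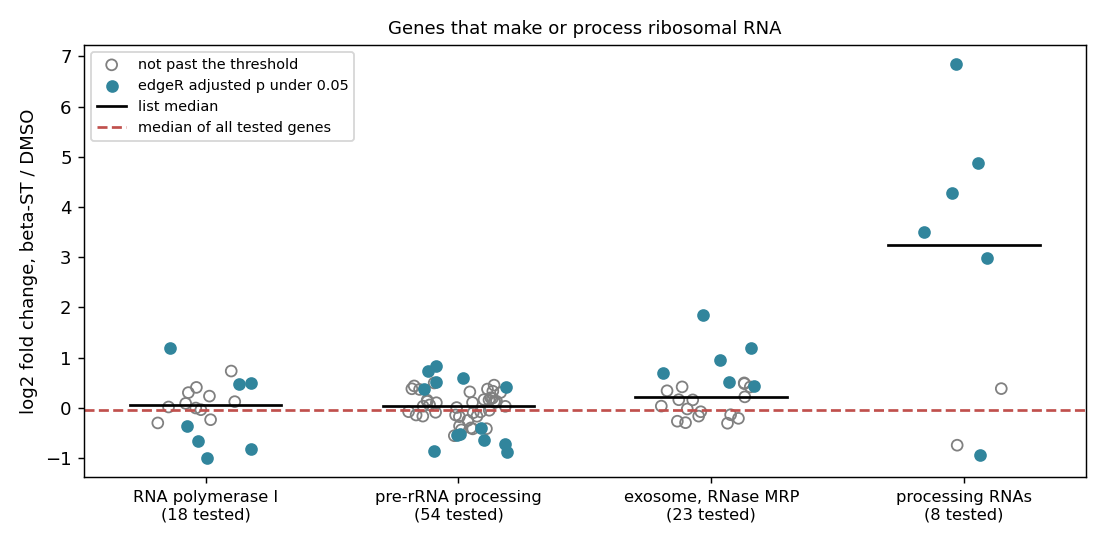
Log2 fold change, beta-sitosterol over DMSO (vertical axis), of tested genes in the 4 lists of genes that make or process ribosomal RNA. Filled points passed an edgeR adjusted p under 0.05, open points did not, black lines are list medians (0.05, 0.05, 0.22 and 3.24 from left to right) and the dashed line is the median of all tested genes (-0.04). At the right, SNORD3A, SNORD3B-1, SNORD3B-2 and RMRP passed the filter on low counts only through the treated libraries, and nothing is read from their calls.

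Totals were 26453101 to 29359951 reads in beta-sitosterol libraries and 31314104 to 35565163 in DMSO libraries. The listed TPM came to 57.0% to 57.8% of a full total after beta-sitosterol and 39.5% to 69.2% in DMSO, the lowest being DMSO replicate 2. Summed B-cell markers were 2236 to 2403 CPM after beta-sitosterol and 1772 to 2468 CPM in DMSO, and 2 of the 6 rose and 1 fell. Of the T-cell markers 2 of 5 (CD3E and CD3G) were at 0, and their sum was 1.12 to 1.55 CPM after beta-sitosterol and 1.76 to 1.99 CPM in DMSO. Myeloid markers summed to 6.35 to 8.40 CPM after beta-sitosterol and 4.61 to 7.04 CPM in DMSO, with FCGR3A of 5 at 0. NK-cell markers summed to 7.60 to 8.97 CPM after beta-sitosterol and 1.63 to 4.33 CPM in DMSO, NKG7 being higher by edgeR and none of the 3 at 0. Erythroid markers reached 0.0727 CPM at most after beta-sitosterol and were at 0 in DMSO. The part of the NK-cell markers in any result above was not tested.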

How the data were processed

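RNA sequencing covered 6 libraries, 3 per group. The authors deposited a table of raw, whole-number counts and a second table of TPM for those genes. Tools named in the submitters' processing notes were StringTie 2.2.1, featureCounts 2.0.1, STAR 2.7.10 and fastp 0.23.2, and the build was GRCh38. No source used here gives the annotation, the strand setting or the treatment of multi-mapping reads, so overlapping or antisense genes cannot be told apart. Of 65807 rows, 61 repeats of a symbol were dropped. The members and gene lists were chosen with earlier results of these data known.

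Counts were tested in R 4.3.3 with edgeR 4.0.16 (TMM, filterByExpr, quasi-likelihood test, treatment as the only term, two-sided, Benjamini-Hochberg over 11525 genes, threshold 0.05). A standard error is the fold change in log2 units, without sign, divided by the root of F. Members received exact Poisson intervals. Their rows were part of the fit over all genes, but no p-value of theirs is used. List genes were named by the 3 smallest p per direction, or all where 5 or fewer were called. Gene length was taken as the count over TPM, scaled on 886 genes with a single GENCODE v29 transcript, of which 98.5% came within 0.5 bases. The sequence of the spacer microRNA gene is not reported here. RefSeq promoter sequences were held for none of the members. Alternatives were RLE factors, library totals, other filters, DESeq2 1.42.0, limma 3.58.1 on log2 TPM, a replicate block, another prior count and each library left out.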

Additional observations from a re-analysis of the deposited data

How the results depend on the processing

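Across 14 alternatives no list gene named above changed sign wherever it could be fitted. With limma on log2(TPM + 1) or log2(TPM + 0.1), where the median of all genes lay at -0.19 or -0.26, all calls numbered 2939 or 2935 against 4697, and 24.3% or 23.5% of calls were higher against 46.5%. On those scales 1 polymerase I gene, 1 processing gene and 2 exosome and RNase MRP genes were higher. On both scales 3 polymerase I genes, 8 processing genes and 1 gene of the exosome and RNase MRP list were lower. DESeq2 called 10 processing genes higher. With a prior count of 0.5, the difference of mean log2 CPM was 8.62 for MIR3648-1, 7.33 for RNA5-8SN3 and 8.07 for RNA5-8SN4, against 7.50, 5.36 and 6.08 with a prior count of 2; this follows from the counts at or near 0 in DMSO. Leaving out each library gave 3094 to 6640 calls in all, 1 to 5 higher and 2 to 5 lower polymerase I genes, 2 to 17 higher and 4 to 12 lower processing genes, and 4 to 8 higher and 0 to 4 lower exosome and RNase MRP genes. It gave differences of 7.09 to 8.01 for MIR3648-1, 4.96 to 5.77 for RNA5-8SN3 and 5.8 to 6.31 for RNA5-8SN4, and a ratio of mean CPM of 206 to 1466 for MIR3648-1. Apart from the prior count, the cause of these shifts was not tested. Same-numbered libraries deviated together weakly (correlations of 0.039, 0.10 and 0.15). Libraries of different number had lower correlations, from -0.14 to 0.025. The labels name no pairs, so the main fit takes none, and whether the numbers mark pairs is not settled here. The replicate block gave 4743 calls, with 4 higher and 3 lower polymerase I genes, 5 and 7 processing genes, and 7 and 0 exosome and RNase MRP genes. Depth limits the DMSO values of the members, where at most 6 reads were counted.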
